A study of Mus musculus with 4 samples.

Results

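Genes of meiosis and of the piRNA pathway, which are normally used in germ cells, were followed as mouse embryonic stem cells left the naive state. The members were 43 named genes, and each was found by mapping the gene IDs of the table, without their version, to symbols. A row was found for 42 of the 43 among 20296 genes, and the expression of Rnf212 was not analysed here. RNA was sequenced from epiblast-like stem cells (EpiLSC), collected on day 3 of culture with activin A at 20 ng/ml and bFGF at 12 ng/ml in N2B27 medium, and from naive embryonic stem cells (nESC), kept in 2i/LIF medium. Each state had 2 samples, 1 of the line R1 and 1 of the line E14TG2a, both mouse embryonic stem cell lines, and R1 and E14TG2a were each sampled 1 time per state. The spread within a state therefore includes the difference between the lines, p-values do not measure the spread of repeat cultures, and a difference between the states cannot be told apart from one between the media.

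In the mouse, primordial germ cells arise from the epiblast after implantation and only later switch on the genes of meiosis. Meiotic chromosomes are held by germ cell cohesins, folded onto an axis, cut and repaired by recombination proteins, and paired by the synaptonemal complex. PIWI proteins carry piRNAs, small RNAs that silence transposons in the germ line, and Tudor domain proteins gather these factors in cytoplasmic granules. Many of these genes have CpG-rich promoters that are kept silent in other cells by DNA methylation and by a Polycomb complex that contains E2F6, MGA and MAX.

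The only values were those of 1 comparison table made by the authors, with no value per sample. Its header does not name the direction. Positive log2 fold changes were taken as higher in EpiLSC, because the epiblast markers Fgf5 (8.40, SE 0.76) and Otx2 (3.90, SE 0.66) were positive and the naive markers Zfp42 (-6.22, SE 0.62) and Esrrb (-8.54, SE 0.69) negative in the authors' deposited table. A level per state, in normalized counts, was computed from the mean over the 4 libraries and the fold change, and it carries no SD. A level under 3 was taken to rest on few reads. Total reads per sample are unknown, so precision is given by the standard error (SE), which ran from 0.61 to 2.05 among the tested members, with a median of 0.79 for the members and 0.79 for all tested genes. These are bulk RNA samples, in which fewer cells of a kind and less RNA per cell cannot be told apart.

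Germline genes moved in both directions. The authors' DESeq2 test gave 39 members an adjusted p. With 0.05 as the threshold, 10 of them rose and 7 fell in EpiLSC, while 22 did not pass. The 17 that passed were 43.6% of the tested members, and among all 16361 tested genes 13.9% passed, with 7.67% that rose and 6.23% that fell. The members that rose were Ddx4, Meioc, Sycp2, Sycp3, Mael, Tdrd1, Tdrd5, Tdrd6, Tdrd7 and Tdrkh, and those that fell were Dazl, Sohlh2, Stra8, Hormad1, Gtsf1, Tex14 and Tex19.1. The median log2 fold change of the tested members was 0.29, with quartiles of -2.01 and 1.93, against a median of 0.02 with quartiles of -0.64 and 0.78 for all tested genes. The members' mean levels were intermediate, and among the 8239 tested genes between the 10th and the 90th percentile of the members' means, 19.3% passed. The summed levels of the members made up 0.065% of all normalized counts in EpiLSC and 0.0484% in nESC. A single gene weighs heavily in this difference. Of summed levels of 17918 in EpiLSC and 13633 in nESC, Sycp3 alone held 4223 in EpiLSC and 520 in nESC.

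**Figure D1:**
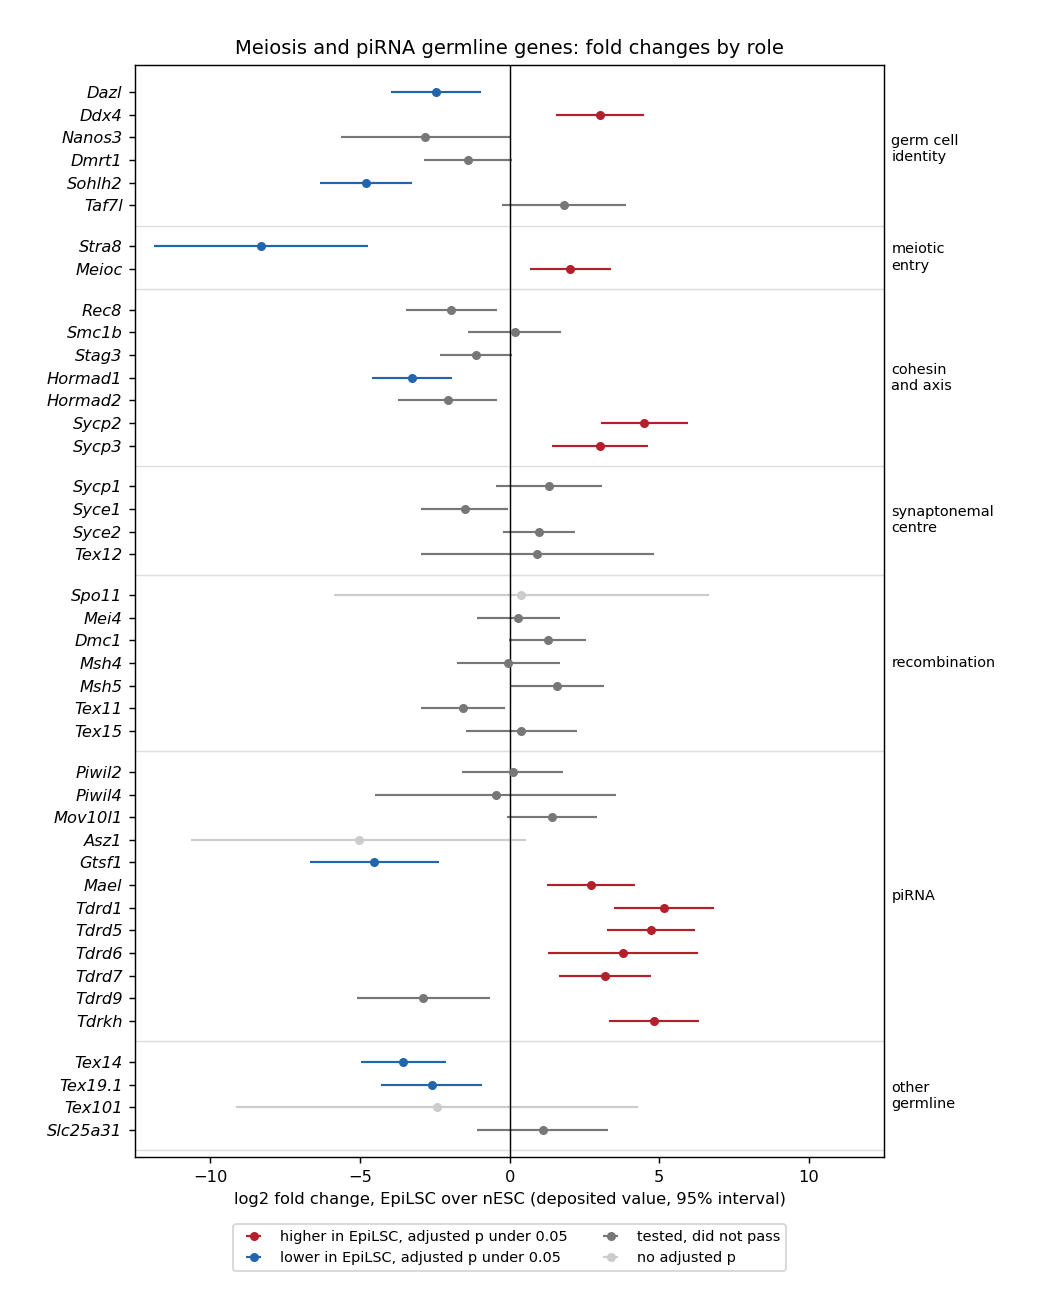
Log2 fold change of 42 germline genes, EpiLSC over nESC, as points with 95% intervals, grouped by role, with the outcome of the authors' test as colour. The 10 genes higher in EpiLSC include 5 with Tudor domains. No gene of the synaptonemal centre (4 tested) or of recombination (6 tested) passed, against 13.9% called among all tested genes.

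Genes that mark germ cell identity split. Ddx4, which encodes the Vasa RNA helicase of germ granules, had an implied level of 1291 normalized counts in EpiLSC and 159 in nESC, a rise of 3.03 on the log2 scale (SE 0.75, adjusted p 0.000868), per the authors' deposited table. Dazl, an RNA-binding protein that germ cells need for their development, lay the other way at 142 in EpiLSC and 784 in nESC. It fell by 2.46 (SE 0.77, adjusted p 0.0125), per the authors' deposited table. Sohlh2, a bHLH transcription factor of early germ cells, had 25.8 in EpiLSC and 719 in nESC and fell by 4.80 (SE 0.79, adjusted p 5.97e-08), per the authors' deposited table. The remaining genes of this kind did not pass: the survival factor gene Nanos3 (-2.81, SE 1.43), the male germ line transcription factor gene Dmrt1 (-1.38, SE 0.75) and Taf7l, a paralogue of a general transcription factor subunit (1.82, SE 1.06), in the authors' deposited table. Dmrt1 was at 78 normalized counts in EpiLSC and 202 in nESC, Taf7l at 67.8 in EpiLSC and 19.14 in nESC, and Nanos3 at 5.05 in EpiLSC and 35.4 in nESC.

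Of the pair of genes linked to meiotic entry, one fell and one rose. Stra8, the retinoic acid-induced gene that starts meiosis, fell by 8.30 (SE 1.82, adjusted p 0.000105), per the authors' deposited table. Its implied level was 0.193 in EpiLSC and 60.6 in nESC. The EpiLSC level of Stra8 belongs to a narrow band from 0.187 to 0.193 that held 134 tested genes, and the next 28 genes lay between 0.25 and 0.5. In this band the EpiLSC level was nearly the same whatever the nESC level, so the size of the Stra8 fold change is set by the nESC reads and the authors' fit and is no estimate of a ratio. Meioc, whose protein works with YTHDC2 on RNAs of meiotic prophase, had 1493 in EpiLSC and 365 in nESC, and rose by 2.03 (SE 0.68, adjusted p 0.0256), per the authors' deposited table. Meioc thus differed about 4.09-fold between the states, but the test against a 2-fold change gave an adjusted p of 0.836 (range 0.0256 to 0.836 over the alternatives).

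Among the cohesin and chromosome axis genes, the lateral element genes of the synaptonemal complex rose. Sycp3 had 4223 normalized counts in EpiLSC and 520 in nESC, and the authors' deposited table gave it a rise of 3.02 on the log2 scale (SE 0.82, adjusted p 0.00283). Sycp2 had 498 in EpiLSC and 22 in nESC, a difference of 4.50 (SE 0.75, adjusted p 8.26e-08), per the authors' deposited table. Hormad1, whose HORMA domain protein binds unsynapsed axes, fell by 3.27 (SE 0.68, adjusted p 3.80e-05), from the values of the authors' deposited table, with 51.3 in EpiLSC and 495 in nESC. Its relative Hormad2 had 112 in EpiLSC and 471 in nESC and did not pass (-2.07, SE 0.85, adjusted p 0.0909 per the authors' deposited table). The cohesin genes Rec8 (-1.95, SE 0.78), Stag3 (-1.13, SE 0.61) and Smc1b (0.17, SE 0.79) were outside the threshold, from the authors' deposited table. The kleisin gene Rec8 had 63.6 in EpiLSC and 246 in nESC, while Smc1b, of the SMC family, lay at 142 in EpiLSC and 126 in nESC. Stag3, with 1270 in EpiLSC and 2788 in nESC, was among the 4 members with the highest means, the others being Sycp3, Syce2 and Tex15.

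Sycp3 shares exons with another gene, which matters because the strand setting of the counting is not given in the sources used here. In the GENCODE M21 annotation 52.2% of its exon bases are covered on the opposite strand by Chpt1, a gene of phospholipid synthesis. Chpt1 had 521 in EpiLSC and 705 in nESC and did not pass (-0.44, SE 0.73) in the authors' deposited table. Tdrkh overlaps Oaz3 over 36.7% of its exon bases, and Oaz3 had implied levels of 0.835 in EpiLSC and 2.11 in nESC. The overlaps of Msh4, Piwil4 and Tdrd5 with other genes covered at most 2.54% of their exon bases. Per kilobase of annotated exon, Sycp3 was at 3341 normalized counts in EpiLSC and 412 in nESC, Syce2 at 1014 in EpiLSC and 509 in nESC, and Stag3 at 222 in EpiLSC and 486 in nESC. On this per-length scale Sycp3 had the highest level of the 42 members in EpiLSC and Syce2 in nESC.

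The centre of the synaptonemal complex, with 4 tested genes, and the recombination proteins, with 6, had no called gene. Among all tested genes 13.9% passed, and groups this small cannot be set apart from that share. Syce2, a central element gene, had 1995 in EpiLSC and 1002 in nESC (0.99, SE 0.61 in the authors' deposited table). Neither the transverse filament gene Sycp1 (1.31, SE 0.91) nor the central element genes Syce1 (-1.50, SE 0.74) and Tex12 (0.93, SE 1.98) passed in the authors' deposited table. Sycp1 had 54.2 in EpiLSC and 21.9 in nESC, Syce1 had 105 in EpiLSC and 296 in nESC, and Tex12 was low in both states at 6.13 in EpiLSC and 3.22 in nESC. Of these 4 genes 1, Syce1, was under 0.05 before adjustment in the DESeq2 test. The recombinase gene Dmc1 had 588 in EpiLSC and 243 in nESC (1.27, SE 0.66, adjusted p 0.239 per the authors' deposited table). Tex15, needed for break repair and transposon silencing in the male germ line, was abundant in both states, with 2864 in EpiLSC and 2182 in nESC (0.39, SE 0.94 in the authors' deposited table). The crossover genes Msh4 (-0.04, SE 0.88), Msh5 (1.60, SE 0.80) and the X-linked Tex11 (-1.56, SE 0.71) and the break formation gene Mei4 (0.29, SE 0.71) were outside the threshold, from the authors' deposited table. Msh5 had 108 in EpiLSC and 35.8 in nESC, and Tex11 had 69.7 in EpiLSC and 206 in nESC. Msh4 was nearly level at 49.9 in EpiLSC and 51.3 in nESC, and Mei4 had 164 in EpiLSC and 133 in nESC. Among the 6 tested recombination genes 2, Msh5 and Tex11, had an unadjusted p under 0.05. Of all 16361 tested genes 3558 had one, and groups of 4 and 6 genes cannot be set apart from that share either. Spo11, which makes the meiotic breaks, had a mean of 1.79 and no adjusted p, with implied levels of 2.03 in EpiLSC and 1.55 in nESC.

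The piRNA genes held most of the rises: of 11 tested members 6 rose and 1 fell (63.6% called). Among all tested genes 13.9% were called, with 7.67% that rose and 6.23% that fell. The difference between these shares was not tested. On the log2 scale the 11 piRNA members had a median change of 2.73. Tdrd1, a scaffold that binds PIWI proteins, had 306 in EpiLSC and 8.57 in nESC, a rise of 5.16 (SE 0.86, adjusted p 9.22e-08), per the authors' deposited table. Tdrkh, a Tudor protein of the mitochondrial surface, had 429 in EpiLSC and 15.2 in nESC (4.82, SE 0.76, adjusted p 1.70e-08 per the authors' deposited table). Tdrd5 had 734 in EpiLSC and 27.9 in nESC (4.72, SE 0.76, adjusted p 2.58e-08 per the authors' deposited table). These 3 Tudor genes were 26.3-fold to 35.7-fold higher in EpiLSC, and their nESC levels were all above 3. Tdrd7 had 159 in EpiLSC and 17.5 in nESC (3.18, SE 0.79, adjusted p 0.000802 per the authors' deposited table). Tdrd6 had 32.1 in EpiLSC and 2.32 in nESC, so that its rise of 3.79 (SE 1.28, adjusted p 0.0264, per the authors' deposited table) rests on few reads in nESC. Mael, the Maelstrom gene of the same granules, rose by 2.73 (SE 0.75, adjusted p 0.00345), per the authors' deposited table, with 312 in EpiLSC and 47.1 in nESC.

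Neither PIWI gene among the members passed. Piwil2, which encodes MILI, had 72 in EpiLSC and 67.2 in nESC, and its difference of 0.10 (SE 0.86) had a 95% interval from -1.59 to 1.79, computed from the authors' deposited table. Piwil4, which encodes MIWI2, was near the floor at 3.76 in EpiLSC and 5.21 in nESC (-0.47, SE 2.05 in the authors' deposited table). The Tudor helicase gene Tdrd9 had the opposite sign to the other Tudor members and did not pass, with 7.75 in EpiLSC and 57.3 in nESC (-2.89, SE 1.13, adjusted p 0.0707 per the authors' deposited table). Gtsf1, a zinc finger partner of PIWI proteins, fell by 4.51 (SE 1.10, adjusted p 0.000657), per the authors' deposited table, with 3.17 in EpiLSC and 72.3 in nESC. The helicase gene Mov10l1, which acts on piRNA precursors, had 130 in EpiLSC and 48.9 in nESC and did not pass (1.42, SE 0.77 in the authors' deposited table). Asz1, a mitochondrial scaffold gene, had a mean of 3.17 and no adjusted p, with 0.188 in EpiLSC and 6.16 in nESC. A direct test of one member's fold change against another's was not made.

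Of the remaining germline genes, Tex14, which keeps the bridges between germ cells open, fell by 3.55 (SE 0.72, adjusted p 2.25e-05), per the authors' deposited table, with 125 in EpiLSC and 1461 in nESC. Tex19.1, which restrains retrotransposons in germ cells and placenta, fell by 2.60 (SE 0.86, adjusted p 0.0217), per the authors' deposited table, with 97 in EpiLSC and 587 in nESC. Its neighbouring paralogue Tex19.2, with a mean of 3.45, had 2.34 in EpiLSC and 4.56 in nESC. Slc25a31, the germ cell ADP/ATP carrier gene, did not pass (1.10, SE 1.11 in the authors' deposited table), with 37.1 in EpiLSC and 17.3 in nESC. Tex101, a surface glycoprotein gene of germ cells, had a mean of 1.54 and no adjusted p, with 0.483 in EpiLSC and 2.60 in nESC.

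**Figure D2:**
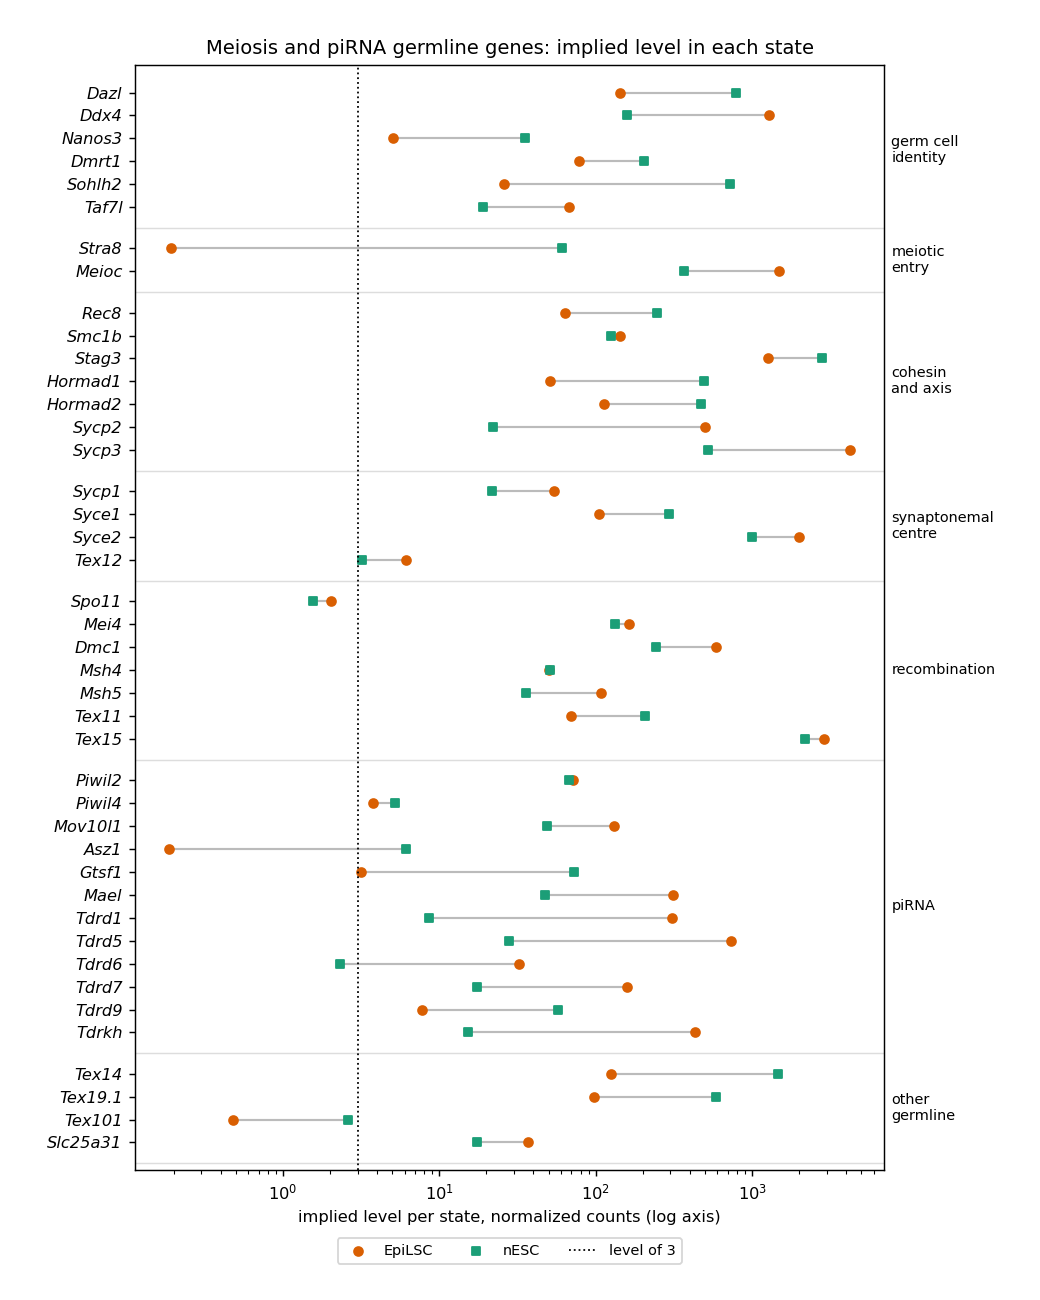
Implied level of 42 germline genes in EpiLSC (circles) and nESC (squares), in normalized counts on a log axis, with a dotted line at 3. Tdrd1, Tdrd5 and Tdrkh lie between 8.57 and 27.9 in nESC and above 300 in EpiLSC, while Spo11 and Tex101 lie below 3 in both states.

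Members outside the threshold may still differ between the states. The smallest change called in the whole table was 1.68 on the log2 scale. An unadjusted p under 0.05 was present for 7 of the 22 members outside the threshold, namely Nanos3, Rec8, Hormad2, Syce1, Msh5, Tex11 and Tdrd9. Called genes included, 24 of the 39 tested members and 3558 of all 16361 tested genes were under 0.05 before adjustment in the DESeq2 test. Only 4 of the 22, Smc1b, Mei4, Msh4 and Piwil2, had a 95% interval that stayed inside 4-fold in both directions. Of all 14087 tested genes that did not pass, 5856 had such an interval. When 2-fold was the null in place of no change, 4 rises and 5 falls remained among the members, against 10 and 7. Among all 16361 tested genes 628 rises and 502 falls remained, against 1255 and 1019. Of the members, Ddx4, Meioc, Sycp3, Mael, Tdrd6 and Tdrd7 lost their calls among the rises, and Dazl and Tex19.1 among the falls.

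**Figure D3:**
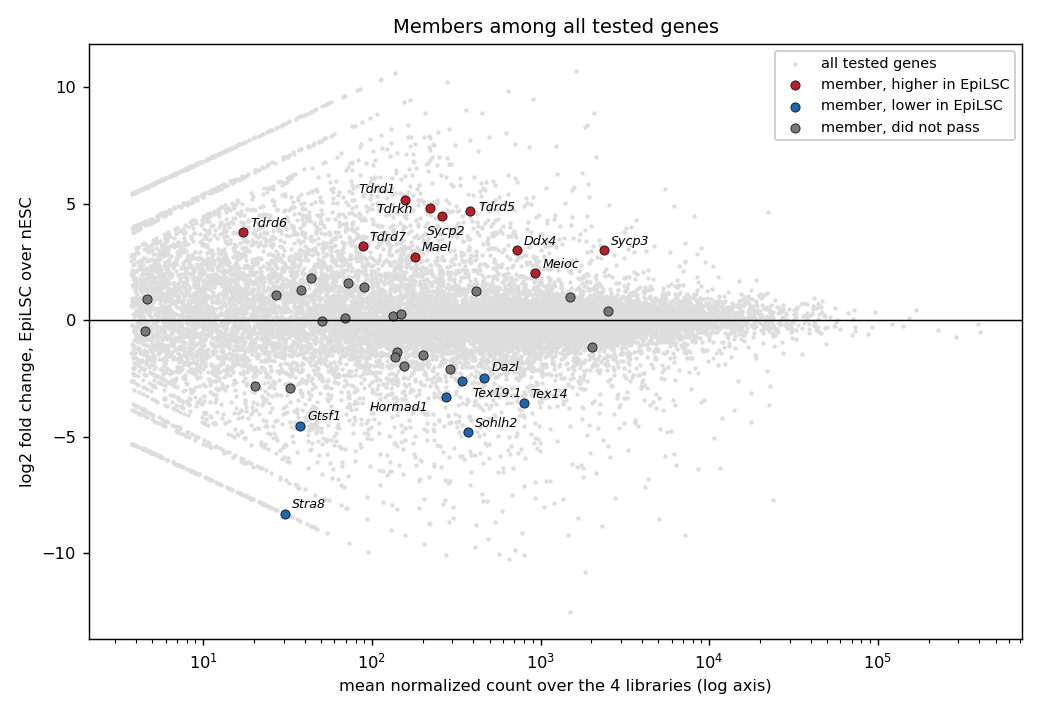
Log2 fold change, EpiLSC over nESC, against the mean normalized count on a log axis, for all 16361 tested genes in grey and the 39 tested members in colour. Stra8 lies on the lower straight edge of the cloud, which is formed by genes with an EpiLSC level near 0.19, while the other members that fell lie inside the cloud.

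Promoter sequences were examined because the members share roles that are known to be silenced through promoter elements. RefSeq windows on GRCm38.p6, from 250 bases before to 50 bases after a transcription start, matched 37 of the 43 members by symbol, Rnf212 included. Dmrt1, Piwil2, Spo11, Tdrd6, Tex11 and Tex15 had no entry. The motifs searched were CACGTG, the E-box bound by MGA and MAX, its extension TCACGTGA, which contains it, GGCGGGAA and GCGCGAAA, both of E2F type, and CCAAT, each on both strands. CACGTG was present in 14 of 37 members (37.8%), against 11.3% of 12079 tested genes and 8.09% of all 27025 genes with a window. GGCGGGAA was found in 8 of 37 members (21.6%), compared with 4.54% of tested genes and 2.52% of all genes. TCACGTGA and GCGCGAAA were in 0 of 37 members, against 1.97% and 0.671% of tested genes, while CCAAT was in 43.2% of members and 43% of tested genes. No test was made of these shares.

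The E-box occurred in members of every outcome. Among the members with a test outcome, it was in 4 of 9 members that rose, 1 of 7 that fell and 8 of 18 that did not pass, the last including Stag3, Syce2, Sycp1, Taf7l, Tdrd9 and Slc25a31. The E2F-type GGCGGGAA was in 1 of 9 that rose, 2 of 7 that fell and 4 of 18 that did not pass. The median CpG count of the window was 25 in members that rose, 17 in those that fell and 18 in those that did not pass, with 21 in all tested genes, and among all tested genes it was 20 in those that rose and 11 in those that fell. A match is a description of letters and shows neither binding nor its absence.

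**Figure D4:**
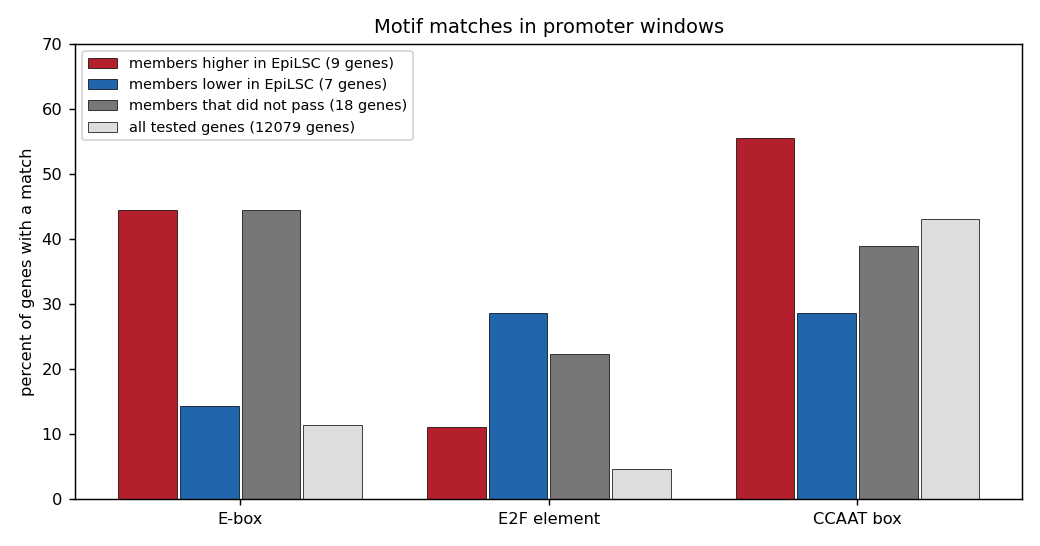
Percent of genes with a match in the promoter window for the E-box, the E2F-type element and the CCAAT box, in members higher in EpiLSC (9 genes), members lower in EpiLSC (7), members that did not pass (18) and all tested genes (12079). The E-box share is 44.4% in members that rose and 14.3% in those that fell, with 44.4% also in members that did not pass and 11.3% in all tested genes.

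The 250 bases before the start are shown, 5′ to 3′ on the gene's strand from RefSeq GRCm38.p6, for 3 members that rose and 3 that fell. Capitals mark CACGTG and GGCGGGAA on either strand. The printed members do not stand for their groups: all 3 that rose carry an E-box, which only 4 of 9 members that rose have. Meioc, Sycp2, Tdrd5, Tdrd7 and Tdrkh, which rose, have none, and Hormad1 is the 1 of 7 members that fell with an E-box. Ddx4, at chr13:112652311-112652560 (minus strand), carries both, Mael, at chr1:166238745-166238994 (minus strand), has 1 E-box far from the start, and Sycp3, at chr10:88459337-88459586 (plus strand), has 2 E-boxes close together. Hormad1, at chr3:95559427-95559676 (plus strand), which fell, carries both motifs. Tex14, at chr11:87404815-87405064 (plus strand), has the E2F-type element on the other strand, and Stra8, at chr6:34920698-34920947 (plus strand), has no match and only 5 CpGs in these bases.
Ddx4: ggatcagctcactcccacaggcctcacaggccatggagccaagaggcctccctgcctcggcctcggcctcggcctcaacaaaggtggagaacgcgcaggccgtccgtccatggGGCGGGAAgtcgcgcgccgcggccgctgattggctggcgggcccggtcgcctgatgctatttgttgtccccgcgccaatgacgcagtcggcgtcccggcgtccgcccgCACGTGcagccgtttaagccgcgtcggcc
Mael: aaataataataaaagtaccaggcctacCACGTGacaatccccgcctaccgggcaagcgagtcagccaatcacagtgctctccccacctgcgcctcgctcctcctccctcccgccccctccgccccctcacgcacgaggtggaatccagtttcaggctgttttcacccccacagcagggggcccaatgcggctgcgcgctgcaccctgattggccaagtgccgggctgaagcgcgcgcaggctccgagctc
Sycp3: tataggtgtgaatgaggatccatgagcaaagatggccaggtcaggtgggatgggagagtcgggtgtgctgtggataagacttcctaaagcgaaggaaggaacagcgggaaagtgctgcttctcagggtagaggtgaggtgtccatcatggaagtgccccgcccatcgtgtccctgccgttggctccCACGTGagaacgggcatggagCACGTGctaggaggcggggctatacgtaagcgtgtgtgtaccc
Hormad1: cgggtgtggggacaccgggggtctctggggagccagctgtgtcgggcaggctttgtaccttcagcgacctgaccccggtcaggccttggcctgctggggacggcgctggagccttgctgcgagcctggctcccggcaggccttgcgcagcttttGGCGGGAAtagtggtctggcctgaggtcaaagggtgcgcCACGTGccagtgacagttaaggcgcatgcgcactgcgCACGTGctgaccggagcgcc
Tex14: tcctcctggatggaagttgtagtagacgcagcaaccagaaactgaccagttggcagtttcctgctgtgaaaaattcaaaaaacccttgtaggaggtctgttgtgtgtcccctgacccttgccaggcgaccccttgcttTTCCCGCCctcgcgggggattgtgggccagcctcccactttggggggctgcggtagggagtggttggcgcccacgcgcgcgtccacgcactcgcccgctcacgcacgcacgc
Stra8: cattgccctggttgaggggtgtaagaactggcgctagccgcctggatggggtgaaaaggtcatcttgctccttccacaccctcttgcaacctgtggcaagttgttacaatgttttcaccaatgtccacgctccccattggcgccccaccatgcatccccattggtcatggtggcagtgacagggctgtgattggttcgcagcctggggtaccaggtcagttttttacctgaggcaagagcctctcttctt

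Counted from the start, with the last base before it as -1, the E-box of Ddx4 spans -29 to -24 and its GGCGGGAA -137 to -130. In Sycp3 the E-boxes begin at -64 and -43, and in Hormad1 at -57 and -20. The E-box of Mael begins at -223. Ddx4 and Hormad1 are the pair of printed members with both motifs. Ddx4 had 1291 in EpiLSC and 159 in nESC, and Hormad1 had 51.3 in EpiLSC and 495 in nESC. The part of the motifs in these changes was not tested.

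Other genes of the same pathways were read for comparison. Of 35 further meiosis genes 32 were tested, and 5 rose and 3 fell (25% called, against 13.9% of all tested genes), with a median log2 fold change of 0.33. Those with the smallest p among the rises were the cohesin gene Rad21l (6.79, SE 1.46), Rad51ap2 (4.99, SE 1.09) and the central element gene Six6os1, and among the falls the break formation gene Rec114 (-5.98, SE 0.87), Hsf2bp (-3.28, SE 0.65) and Majin (-3.86, SE 1.37), a gene of telomere attachment, in the authors' deposited table. Rad21l had 104 in EpiLSC and 0.944 in nESC, and Rec114 had 6.07 in EpiLSC and 382 in nESC. The nESC levels of Rad21l and Rad51ap2 (2.65) and the EpiLSC level of Majin (2.64) rest on few reads. Among 18 tested further piRNA genes 0 rose and 4 fell (22.2% called), with a median of -0.94. Before adjustment 7 of these 18 were under 0.05 in the DESeq2 test, against 3558 of all 16361 tested genes. Morc1, a gene of transposon silencing in the male germ line, had 76.2 in EpiLSC and 8565 in nESC and fell by 6.81 (SE 0.68), per the authors' deposited table. Fkbp6 (-4.58, SE 0.98), the Tudor gene Tdrd12 (-2.78, SE 0.67) and Akap1 (-2.01, SE 0.63) also fell in the authors' deposited table. A further PIWI gene, Piwil1, had 19.4 in EpiLSC and 29.5 in nESC and did not pass. The list is broad and includes Hsp90aa1, Prmt5 and Snd1. Its tested genes had a median mean of 1749, against 88.1 for the piRNA members.

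**Figure D5:**
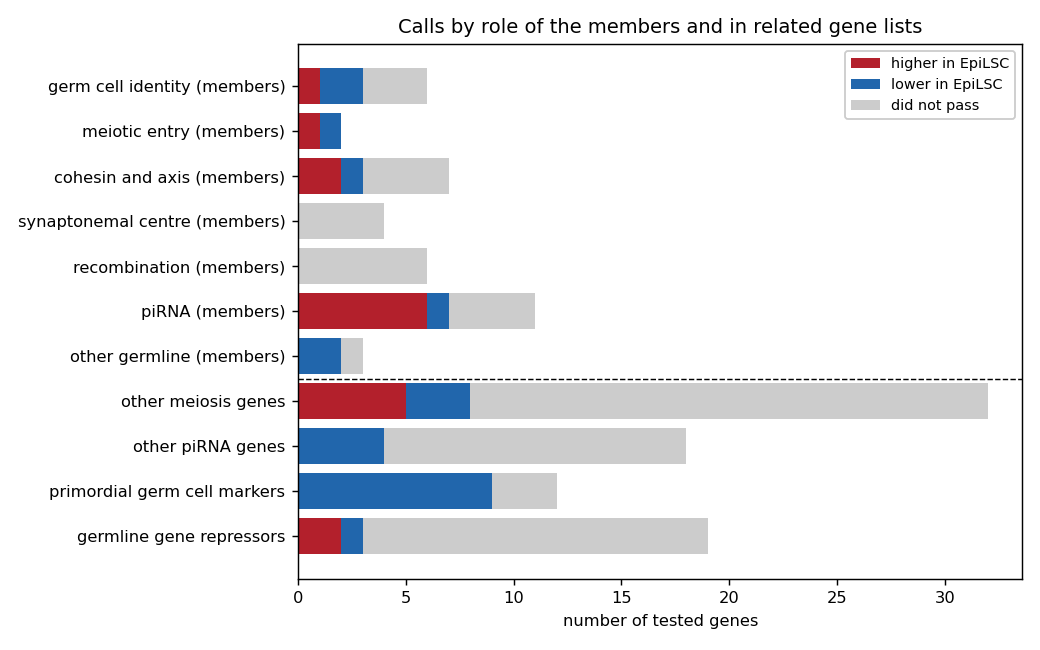
Number of tested genes that were higher in EpiLSC, lower in EpiLSC or did not pass, for the members by role (above the dashed line) and for 4 related gene lists (below it). The piRNA members hold 6 rises and 1 fall. The other piRNA genes, a broader list with Hsp90aa1 among those that did not pass, hold 0 rises and 4 falls. These calls make up 63.6% of the tested piRNA members and 22.2% of the other piRNA genes, against 13.9% of all tested genes.

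Markers of germ cells at several stages were read beside the members. Of 12 tested genes of primordial germ cells 9 fell and 0 rose (75% called, against 13.9% of all tested genes). Their median was -3.86, and the summed implied levels of the list were 10958 in EpiLSC and 27078 in nESC. Most of the EpiLSC sum came from Pou5f1 (7517 in EpiLSC and 8564 in nESC) and Elavl2 (2466 in EpiLSC and 2766 in nESC), neither of which passed. Ifitm1 (-7.64, SE 0.74), Prdm14 (-10.24, SE 1.23) and Tfap2c (-5.82, SE 0.77) had the smallest p in the authors' deposited table. The EpiLSC level of Prdm14 was 1.08 and rests on few reads, and the naive state also uses Prdm14 and Tfap2c. Alpl and Ifitm1 were also well expressed in nESC, at 5139 and 1846. Whether the falls belong to the naive state or to a germ cell program was not tested. Among 10 tested spermatogonia markers 1 rose, Ddx25, and 2 fell, Id4 and Kit (30% called). The median log2 fold change of these 10 was 0.87, with 5 positive and 5 negative. The summed levels of both lists rest largely on a few genes, and those of the spermatogonia list were 5812 in EpiLSC and 11020 in nESC. Most of the spermatogonia sums came from Sall4 and Kit. Sall4, which pluripotent cells also use and which did not pass, had 4296 in EpiLSC and 4401 in nESC. Kit, which is also in the primordial germ cell list, had 412 in EpiLSC and 5455 in nESC. Prm1, Prm2, Tnp1, Tnp2, Acrv1 and Odf1 of spermatids had no row in the table. Of 5 tested spermatid genes 1 fell, Tekt1 (20% called), and the summed level over the list was 6175 in EpiLSC and 9498 in nESC. Of this sum Odf2 alone, which did not pass, held 5689 in EpiLSC and 8745 in nESC, and Acr, Spaca1 and Pgk2 were under 3 in both states. Crem had 385 in EpiLSC and 349 in nESC, Ldhc 80.4 in EpiLSC and 112 in nESC, and neither passed. Hspa1l, at 9.92 in EpiLSC and 0.17 in nESC, did not pass and rests on few reads in nESC. The oocyte list had 4 tested genes, of which 1, Zp3, fell (25% called). The EpiLSC level of Zp3 was 0.534 and rests on few reads. The summed level of the oocyte list was 29.9 in EpiLSC and 89.2 in nESC. Gonadal somatic cell markers, 5 of them tested, and markers of the 2-cell-like state, 4 tested, had 0 calls in the authors' deposited table. Before adjustment 0 genes of these 2 lists were under 0.05 in the DESeq2 test, against 3558 of all 16361 tested genes. The summed level was 132 in EpiLSC and 149 in nESC for the gonadal somatic list, and 229 in EpiLSC and 343 in nESC for the 2-cell-like list. The part of these cell types in the members' values was not tested.

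Of 19 tested genes known to act in silencing germline promoters, 2 rose and 1 fell, a share of 15.8% that lay near the 13.9% of all tested genes. The DNA methyltransferase genes Dnmt3b (4.63, SE 0.63) and Dnmt3a (2.92, SE 0.63) rose and their cofactor gene Dnmt3l (-2.93, SE 0.71) fell in the authors' deposited table. No gene named here of the E2F6 and MGA complex passed: E2f6 (1.22, SE 0.74), Mga (-0.35, SE 0.66), Max (-0.37, SE 0.63), Pcgf6 (0.41, SE 0.74) and L3mbtl2 (-0.83, SE 0.83) in the authors' deposited table. DNA methylation was not measured here, and the part of these genes in the members' changes was not tested.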

How the data were processed

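RNA sequencing of 2 EpiLSC and 2 nESC samples was used. Libraries were strand-specific and ribosomal RNA had been removed, per the labels' protocols. TopHat2, HTSeq, DESeq2 1.8.2 and mm9 are named in the submitters' processing notes. Which annotation and which strand setting were used, and whether fold changes were shrunken, is not given in the sources used here. Whether the authors' test had a term for the line is not known here.

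Available were the deposited values of 1 comparison table. Its mean normalized count, a signal deposited by the authors, had been scaled between libraries. The log2 fold change with its standard error, the Wald score, the p-value and the adjusted p are all the authors' deposited values. The adjusted p equalled the Benjamini-Hochberg value over 16361 genes (largest gap 2.33e-15), and 3935 genes, none with a mean over 3.74, lack one. No new test of single genes was made. With mean m and log2 fold change L, the implied level is 2m/(1 + 2 to the power L) in nESC and the rest of 2m in EpiLSC, which assumes that the libraries weigh equally. Intervals are at 95% from the standard errors.

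Symbols came from GENCODE M21 (20167 of 20296 IDs), exon lengths and overlaps from the same annotation on GRCm38, and promoters from RefSeq GRCm38.p6. Coordinates of the table's mm9 were not used. Every member was named, with the 3 called genes of smallest p in each direction of every other list and each called repressor gene. Single genes among the repressors that did not pass, and the low or absent spermatid genes, were picked for mention with their values already seen. The same holds for Tex19.2, Chpt1, Oaz3, Pou5f1, Elavl2, Alpl, Sall4, Odf2, Crem, Ldhc, Hspa1l, Akap1, Piwil1, Hsp90aa1, Prmt5 and Snd1. The members and lists were chosen with earlier results of these data known. The call rules were tested on simulated data. Python 3.11.15, numpy 2.4.6, pandas 2.3.3 and scipy 1.17.1 were used. Alternatives were a threshold of 0.01, no filter on low means, means of 100 or more, a test against a 2-fold change, an added fold of 2, and promoter windows of 250 bases.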

Additional observations from a re-analysis of the deposited data

How the results depend on the processing

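All alternatives used the deposited fold changes, so the direction of a call could not change. The 17 member calls held with no filter on low means and with an added fold of 2. At a threshold of 0.01, Dazl, Meioc, Tdrd6 and Tex19.1 lost their calls. Against a 2-fold change 4 members rose and 5 fell, and in the other meiosis list 2 rose, in the other piRNA list 2 fell, in the repressor list 0 fell and in the spermatogonia list 0 rose. That test left 628 rises and 502 falls among all genes, against 1255 and 1019. The adjusted p against a 2-fold change was 0.446 for Dazl, 0.089 for Ddx4, 0.15 for Sycp3, 0.217 for Mael, 0.281 for Tdrd6, 0.0733 for Tdrd7 and 0.484 for Tex19.1. With means of 100 or more, 24 members were tested (8 rose, 5 fell; Stra8, Gtsf1, Tdrd6 and Tdrd7 were not tested), the other meiosis list had 1 rise, the oocyte list 0 falls because none of its genes was tested, and all genes 636 rises and 615 falls. At 0.01 the spermatogonia list had 0 rises. In 250 bases the E-box share was 35.1% in members and 9.55% in tested genes, and the GGCGGGAA share 18.9% and 3.87%. No paired analysis was possible because the table holds no value per sample, and for the same reason no replicate was left out and no other normalization was tried. The other weighting of the states in the implied levels was not run. Where these changes have a cause other than fewer genes tested or a shorter window, the cause was not tested.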
